A study of Rattus norvegicus with 14 samples.

Results

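The 30 genes described here encode integrin subunits and the proteins that gather on their cytoplasmic side at focal adhesions. They were chosen by name: 10 integrin subunits (Itga1, Itga3, Itga5, Itga6, Itga7, Itgav, Itgb1, Itgb3, Itgb4 and Itgb5) and 20 adaptors, scaffolds and kinases (Ptk2, Src, Ilk, Bcar1, Pxn, Vcl, Tln1, Zyx, Actn1, Actn4, Parva, Lims1, Tns1, Cav1, Cav2, Crk, Git1, Arhgef7, Pak1 and Pak2). All 30 were found among the 14218 genes that the probe annotation names, and each was represented by the probe set with its highest mean log2 signal. All 30 also passed the filter on low signals, which left 9840 named genes, but Itga7 passed it narrowly, with signals between 8.82 and 114 and only 3 arrays at 100 or more. The other 29 members reached 100 on all 14 arrays.

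RNA came from IEC-6, an established rat line that the labels describe as crypt cells of the intestine. The 4 groups, each kept for 72 h, were 100 µM indomethacin (2 arrays), 100 µM NS-398 (4 arrays), 1 µM SC-560 (4 arrays) and the DMSO vehicle (4 arrays). Indomethacin inhibits both cyclooxygenases, NS-398 prefers the inducible enzyme and SC-560 prefers the constitutive one, and the design text says that indomethacin and NS-398 slow the migration of these cells whereas SC-560 does not. SC-560 was given at a lower dose than the other drugs, so dose and drug cannot be told apart. Cultures were pooled and several chips were hybridised for each biological sample, after 2 rounds of amplification, so every p-value below rests on the spread between arrays, which may be purely technical.

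Array labels carry a digit with or without the suffix b, and the sources used here do not say what the suffix stands for. The 8 arrays with it (set b: indomethacin 1b and 2b, NS-398 1b and 2b, SC-560 1b and 2b, DMSO 1b and 2b) stood apart from the 6 arrays without it (the unsuffixed set: NS-398 1 and 2, SC-560 1 and 2, DMSO 1 and 2). Both indomethacin arrays were in set b. All drug effects were therefore fitted with a term for the label set, and values within a set are given beside those of the joint fit.

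Integrins are paired alpha and beta subunits that span the membrane, bind matrix proteins outside the cell and recruit talin, vinculin, paxillin and the focal adhesion kinase inside it. This links the matrix to actin, and the kinases at these sites pass signals to the small GTPases that drive protrusion. In the gut, epithelial cells use such contacts to stay on the basement membrane and to crawl over it when a wound closes, and the pair of alpha 6 and beta 4 is the laminin receptor of hemidesmosomes.

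The label of an epithelial crypt line was set against marker genes. Cdh1 and Krt8 were present on all 14 arrays, with signals of at least 2637 and 2670. Epcam, Krt18, Cldn3, Cldn7, Muc2 and Fabp2 stayed under 100 on every array, whereas the mesenchymal genes Vim, Col1a1, Col3a1, S100a4 and Fn1 were at 10473 or more on every array. Other genes of the mesenchymal list were low: Pdgfrb (at most 98.2) and Thy1 (at most 81.1) stayed under 100 on every array, and Lum and Pdgfra reached 100 on 2 arrays each. Thus 8 of 15 epithelial markers and 9 of 11 fibroblast markers reached 100 on at least 2 arrays. Without the indomethacin arrays, the summed signal of the epithelial list was 13914 to 15560 in set b and 11186 to 12043 in the unsuffixed set, and that of the fibroblast list was 120766 to 139467 in set b and 92407 to 106000 in the unsuffixed set. Cdx2, a transcription factor of intestinal identity, had a signal of 3072 to 5314 in set b and of 55.0 to 124 in the unsuffixed set, and Cdh1 one of 2637 to 3671 in set b and of 7680 to 8412 in the unsuffixed set. The ratio of the 3′ to the 5′ probe sets of beta-actin reached at most 1.34 in set b and up to 1.64 in the unsuffixed set, without overlap.

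Promoter sequence was available for 22 of the 30 members in RefSeq's annotation of GRCr8, as 27 windows of 250 bases that end just before an annotated start. It was not matched for Itga6, Itga7, Itgb3, Itgb4, Ptk2, Actn4, Parva and Tns1. The windows of Pak1, Itga1 and Zyx are shown because they are the members with a window that were called for a drug against DMSO: Pak1 (chr1:161522200-161522449, plus strand), Itga1 (chr2:48545284-48545533, minus strand) and Zyx (chr4:72203750-72203999, plus strand, the first of its windows). Capitals mark a GC box (GGGCGG or its complement), a TEAD motif (CATTCC) or an antioxidant response element core (TGACNNNGC), each searched on both strands. In Zyx the last capital run is a GC box that overlaps an antioxidant response element core on the other strand.
Pak1: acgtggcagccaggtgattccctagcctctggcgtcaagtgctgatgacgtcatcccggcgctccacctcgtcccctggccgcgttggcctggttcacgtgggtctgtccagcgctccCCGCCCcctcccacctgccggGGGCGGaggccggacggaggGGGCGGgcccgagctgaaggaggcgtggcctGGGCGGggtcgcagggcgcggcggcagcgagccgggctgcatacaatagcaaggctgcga
Itga1: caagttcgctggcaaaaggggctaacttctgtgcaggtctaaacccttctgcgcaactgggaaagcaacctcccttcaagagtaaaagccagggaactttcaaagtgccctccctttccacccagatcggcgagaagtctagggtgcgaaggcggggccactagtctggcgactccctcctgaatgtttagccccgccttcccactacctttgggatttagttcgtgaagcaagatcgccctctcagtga
Zyx: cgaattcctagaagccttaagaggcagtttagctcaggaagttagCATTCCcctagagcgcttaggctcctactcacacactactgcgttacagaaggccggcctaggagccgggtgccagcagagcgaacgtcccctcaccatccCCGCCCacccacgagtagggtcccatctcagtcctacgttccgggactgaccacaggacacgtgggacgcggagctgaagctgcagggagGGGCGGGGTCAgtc
GC boxes were found in 19 of the 27 member windows (70.4%) and in 30.5% of 33469 promoter windows of the same length. The Pak1 window held 4 of them and the Itga1 window none. The median GC content was 68.0% in member windows and 51.2% in all windows. The TEAD motif was in 14.8% of member windows and 12.1% of all, the antioxidant response element core in 14.8% and 10.1%, the AP-1 motif (TGANTCA, both strands) in 3.7% and 6.3%, and the CArG box in 0 of 27 and 1.5%. A match describes the letters in the window and is not evidence of a bound site.

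Under indomethacin 1 member rose and 3 fell, or 13.3% of the 30, where 3.27% of all probe sets tested and 3.60% of the named genes tested were called. Under NS-398 2 rose and 4 fell, or 20.0%, where 13.5% of all probe sets were called, and under SC-560 no member and no probe set passed the test. Only Itgb4 and Parva were called under both indomethacin and NS-398, each in the same direction under both. These comparisons share the DMSO arrays, so the values are set side by side and their likeness is not counted as a result. The plot of log2 changes shows all 30 members under each drug.

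**Figure D1:**
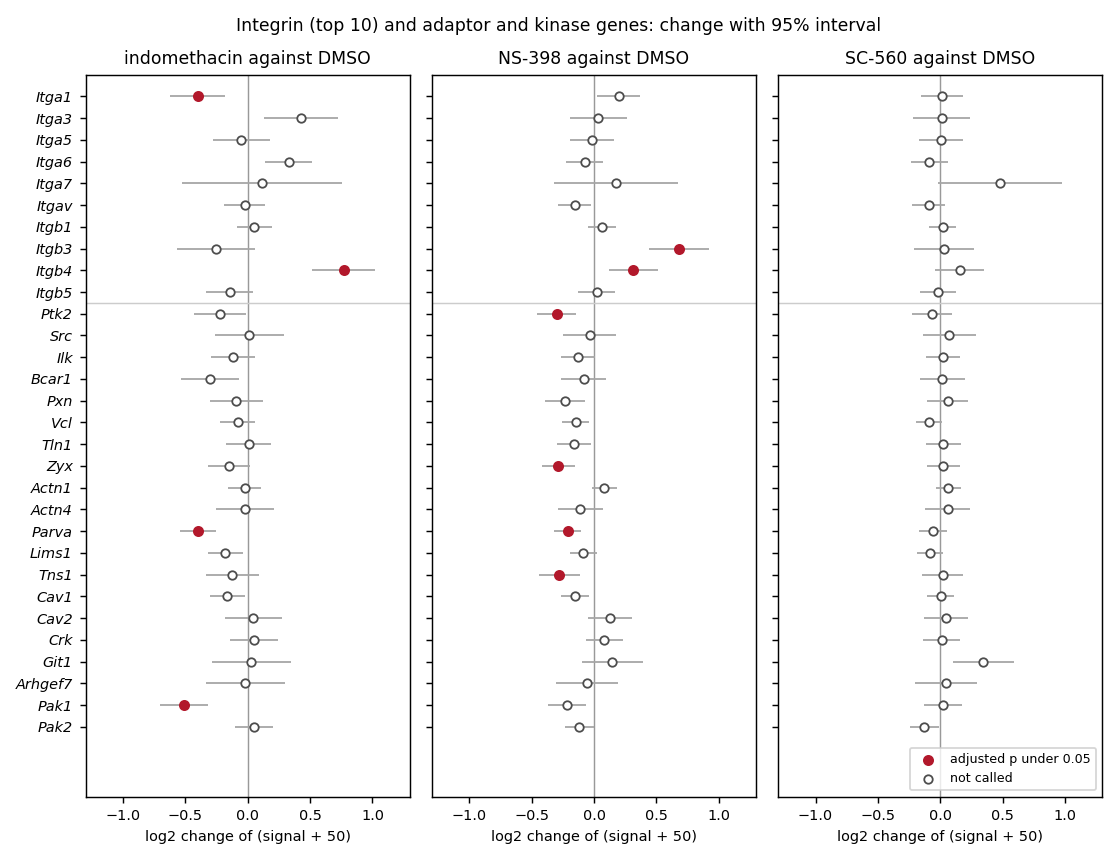
Log2 change of (signal + 50) against DMSO for the 30 members, with 95% confidence intervals from the joint fit, under indomethacin (left), NS-398 (middle) and SC-560 (right); the 10 integrin subunits stand above the grey line and the 20 adaptors and kinases below it. Filled red points passed an adjusted p of 0.05. Itgb4 lies at 0.77 under indomethacin and Itgb3 at 0.68 under NS-398, and no point is filled under SC-560.

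Indomethacin raised Itgb4, the beta subunit that pairs with alpha 6 in hemidesmosomes, more than any other member. Its signal was 1771 and 1929 on the indomethacin arrays, against 852 and 1097 on the DMSO arrays of set b and 634 and 594 on those of the unsuffixed set. Both indomethacin arrays lay above every other array of set b, so the groups did not overlap within that set. Set b was itself higher for Itgb4, so a rank against the unsuffixed arrays would not bear on the drug. The change was 0.77 ± 0.12 on the log2 scale (standard error), or 1.71-fold, with an adjusted p of 0.00171. Within set b alone it was 0.90 ± 0.11 (adjusted p = 7.06e-04). Without indomethacin 2b the adjusted p was 0.0567.

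Itga6, the alpha partner of Itgb4 in the laminin receptor, gave 2899 and 2905 under indomethacin, against 2352 and 2508 on the DMSO arrays of set b and 936 and 966 on those of the unsuffixed set. Both indomethacin values were the highest of set b. Set b was itself higher for Itga6, so a rank against the unsuffixed arrays would not bear on the drug. The change of 0.33 ± 0.09 missed the threshold in the joint fit (adjusted p = 0.0550). Within set b alone it was 0.25 ± 0.07 and passed (adjusted p = 0.0452). The other tested Itga6 probe sets gave 0.44 ± 0.11 (adjusted p = 0.0321) and 0.47 ± 0.13 (adjusted p = 0.0512) in the joint fit.

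Itga1, the alpha subunit of a collagen receptor, was lower. Its signal was 326 and 285 on the indomethacin arrays, against 445 and 404 on the DMSO arrays of set b and 751 and 722 on those of the unsuffixed set. The indomethacin values were the lowest of set b. Set b was itself lower for Itga1, so a rank against the unsuffixed arrays would not bear on the drug. The change was -0.40 ± 0.10 (adjusted p = 0.0430), a value close to the threshold: it was lost when any 1 of the 6 indomethacin and DMSO arrays was left out (adjusted p between 0.0566 and 0.348) and within set b alone (adjusted p = 0.0529). Of the remaining integrin subunits, Itga3 had the largest difference (0.43 ± 0.14, adjusted p = 0.114), and Itga5, Itga7, Itgav, Itgb1, Itgb3 and Itgb5 lay between -0.25 and 0.12.

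Among the adaptors and kinases, indomethacin lowered Parva and Pak1. Parva (alpha-parvin) binds the integrin-linked kinase and actin, and Pak1 is a kinase activated by the GTPases Rac and Cdc42. The Parva signal was 2283 and 2389 under indomethacin, against 3249 and 3010 on the DMSO arrays of set b and 4236 and 4245 on those of the unsuffixed set. That of Pak1 was 1400 and 1363 under indomethacin, against 2309 and 1841 on the DMSO arrays of set b and 4482 and 4446 on those of the unsuffixed set. For both genes the indomethacin arrays were the lowest of set b and did not overlap with the DMSO arrays of that set. Set b was itself lower for both, so a rank against the unsuffixed arrays would not bear on the drug. The changes were -0.40 ± 0.07 for Parva (adjusted p = 0.00303) and -0.51 ± 0.09 for Pak1 (adjusted p = 0.00458). In set b alone they were -0.41 ± 0.07 for Parva (adjusted p = 0.00681) and -0.56 ± 0.11 for Pak1 (adjusted p = 0.0103). The call for Parva was lost without indomethacin 1b (adjusted p = 0.0628) and that for Pak1 without indomethacin 2b (adjusted p = 0.0740). A second Pak1 probe set also fell, by 0.50 on the log2 scale (adjusted p = 0.0299), and a second Parva probe set had -0.28 ± 0.09 (adjusted p = 0.121).

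By direction, 1.51% of the 17515 probe sets tested were called higher under indomethacin and 1.76% lower, beside 1 and 3 of the 30 members. The median change over the members was -0.04, against -0.00 over all named genes tested. The other 18 adaptors and kinases lay between -0.30 (Bcar1, the docking protein p130Cas, adjusted p = 0.153) and 0.05. Ptk2, the focal adhesion kinase, had -0.22 ± 0.10 (adjusted p = 0.252), and Lims1, an adaptor that binds the integrin-linked kinase, had -0.18 ± 0.07 (adjusted p = 0.157). Within set b alone Lims1 was called lower (-0.22 ± 0.06, adjusted p = 0.0421). Src, Tln1, Actn1, Actn4, Arhgef7 and Git1 were all within 0.03 of no change. The summed epithelial markers were 17145 to 17203 on the indomethacin arrays, against 11656 to 14389 on the DMSO arrays of both sets. The summed smooth muscle markers were 2213 to 2348 on the indomethacin arrays, against 2465 to 3385 on the DMSO arrays of both sets. On the set b arrays without indomethacin the epithelial sums were 13914 to 15560 and the smooth muscle sums 2341 to 3367. The indomethacin arrays, all in set b, thus lay above that epithelial range and overlapped with that smooth muscle range. Of the markers, Krt8 was called higher under indomethacin (0.23 ± 0.06), and Dcn (-0.59 ± 0.13) and Tagln (-1.65 ± 0.27) lower. Their part in the results was not tested.

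NS-398 raised Itgb3, the beta subunit of the vitronectin receptor, in both label sets. The Itgb3 signal was 485 and 511 on the NS-398 arrays of set b and 748 and 808 on those of the unsuffixed set, against 274 and 244 on the DMSO arrays of set b and 485 and 560 on those of the unsuffixed set. Within each set both NS-398 values lay above both DMSO values, although the ranges pooled over the sets overlapped. The change was 0.68 ± 0.11, or 1.60-fold (adjusted p = 8.78e-04), and the call held without each NS-398 or DMSO array in turn (adjusted p at most 0.00445). Within set b it was 0.83 ± 0.17 (adjusted p = 0.00797) and within the unsuffixed set 0.53 ± 0.11 (adjusted p = 0.0106).

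Itgb4 was also higher under NS-398, by 0.31 ± 0.09 (adjusted p = 0.0338). The signal was 1446 and 1345 on the NS-398 arrays of set b and 668 and 675 on those of the unsuffixed set, against 852 and 1097 on the DMSO arrays of set b and 634 and 594 on those of the unsuffixed set. The sets differed in size: set b gave 0.51 ± 0.11 (adjusted p = 0.00904) and the unsuffixed set 0.12 ± 0.11 (adjusted p = 0.527), and the test of that difference gave 0.39 ± 0.15 (adjusted p = 0.165). The joint call was lost without DMSO 1b (0.20 in place of 0.31, adjusted p = 0.119), DMSO 2b (0.0574), NS-398 1b (0.0936) or NS-398 2b (0.0688). The other 8 integrin subunits lay between -0.16 (Itgav) and 0.20 (Itga1, adjusted p = 0.118).

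NS-398 lowered 4 of the 20 adaptors and kinases and raised none. Zyx encodes zyxin, a LIM protein of mature adhesions and stress fibres. Its signal was 1631 and 1710 on the NS-398 arrays of set b and 1749 and 1555 on those of the unsuffixed set, against 2116 and 1862 on the DMSO arrays of set b and 2180 and 2006 on those of the unsuffixed set. All 4 NS-398 arrays lay below all 4 DMSO arrays. The change was -0.29 ± 0.06 (adjusted p = 0.00581), and the call held without each NS-398 or DMSO array (adjusted p at most 0.0259). Within set b alone the change was -0.24 ± 0.08 and the call was lost (adjusted p = 0.0739), whereas the unsuffixed set alone kept it.

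Parva, called under NS-398 as well, had signals of 2798 and 2518 on the NS-398 arrays of set b and 3551 and 3868 on those of the unsuffixed set. The DMSO arrays had 3249 and 3010 in set b and 4236 and 4245 in the unsuffixed set. Within each set the groups did not overlap, and the change was -0.21 ± 0.05 (adjusted p = 0.0120). It held without each array in turn (adjusted p at most 0.0483), and the separate sets gave -0.23 ± 0.07 in set b (adjusted p = 0.0534) and -0.19 ± 0.07 in the unsuffixed set (adjusted p = 0.0883).

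Ptk2 encodes the focal adhesion kinase, which is switched on when integrins cluster. Its signal was 1331 and 1231 on the NS-398 arrays of set b and 836 and 857 on those of the unsuffixed set, against 1521 and 1488 on the DMSO arrays of set b and 1035 and 1197 on those of the unsuffixed set. Again no NS-398 array reached a DMSO array of its own set. Ptk2 fell by 0.30 on the log2 scale (-0.30 ± 0.08, adjusted p = 0.0138), with -0.22 ± 0.08 in set b (adjusted p = 0.0741) and -0.38 ± 0.10 in the unsuffixed set (adjusted p = 0.0404). Without DMSO 2 the adjusted p was 0.0529.

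Tns1 encodes tensin, which ties beta subunits to actin at fibrillar adhesions. Signals were 1223 and 1411 on the NS-398 arrays of set b and 1008 and 1097 on those of the unsuffixed set, against 1606 and 1485 on the DMSO arrays of set b and 1372 and 1302 on those of the unsuffixed set. The groups were separate within each set. The change was -0.28 ± 0.08 (adjusted p = 0.0254), and it lost the call without DMSO 1 (adjusted p = 0.0676), DMSO 1b (0.0723), NS-398 1 (0.0779) or NS-398 1b (0.0616). By set it was -0.23 ± 0.11 in set b (adjusted p = 0.228) and -0.33 ± 0.08 in the unsuffixed set (adjusted p = 0.0288).

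By direction, 7.12% of all probe sets tested were called higher under NS-398 and 6.39% lower, beside 2 and 4 of the 30 members. The median over the members was -0.08, that over the 20 adaptors and kinases -0.12 and that over the 10 integrin subunits 0.05, beside -0.00 over all named genes. A further 4 adaptors lay just short of the threshold: Pak1 (-0.22 ± 0.07, adjusted p = 0.0537), Pxn or paxillin (-0.23 ± 0.08, adjusted p = 0.0564), Cav1 or caveolin 1 (-0.15 ± 0.05, adjusted p = 0.0608) and Vcl or vinculin (-0.15 ± 0.05, adjusted p = 0.0630). For Vcl this holds for the chosen probe set only. Another Vcl probe set was higher under NS-398 in both sets. In set b it had 3669 and 3560 on the NS-398 arrays, against 3464 and 3239 on the DMSO arrays. In the unsuffixed set it had 4470 and 4588 on the NS-398 arrays, against 4072 and 3986 on the DMSO arrays. In the remaining Vcl probe set the groups overlapped within each set. The other 12, Src, Ilk, Bcar1, Tln1, Actn1, Actn4, Lims1, Cav2, Crk, Git1, Arhgef7 and Pak2, lay between -0.16 (Tln1) and 0.14 (Git1). The summed epithelial markers, 11186 to 14996 on the NS-398 arrays and 11656 to 14389 on the DMSO arrays, overlapped. So did the fibroblast sums, 92407 to 129104 on the NS-398 arrays and 98765 to 124982 on the DMSO arrays. The smooth muscle sums, 2341 to 2642 on the NS-398 arrays and 2465 to 3385 on the DMSO arrays, overlapped as well. Each group has arrays in both label sets, whose epithelial and fibroblast sums did not overlap. The overlap of the epithelial and fibroblast sums between the groups was thus set by the design and does not bear on the drug. Single markers were called under NS-398: Dcn (0.80 ± 0.10) and Des (0.61 ± 0.14) were higher, and Krt8 (-0.30 ± 0.05), Col1a2 (-0.24 ± 0.04) and Tagln (-1.04 ± 0.21) lower. Their part in the results was not tested.

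SC-560 changed no member at an adjusted p under 0.05 by limma, and it changed none of the 17515 probe sets (0%). At an unadjusted p under 0.05, 2 members differed, Git1 (0.34 ± 0.12, adjusted p = 0.491) and Pak2 (-0.13 ± 0.06, adjusted p = 0.658). The members called under NS-398 had 0.03 ± 0.11 for Itgb3, 0.16 ± 0.09 for Itgb4, 0.02 for Zyx, -0.05 for Parva, -0.07 for Ptk2 and 0.02 for Tns1 under SC-560. Itgb4 had signals of 1286 and 1218 on the SC-560 arrays of set b, against 852 and 1097 on the DMSO arrays of set b, and 564 and 628 on the SC-560 arrays of the unsuffixed set, against 634 and 594 on the DMSO arrays of that set. Within set b both SC-560 values were thus above DMSO (0.36 ± 0.11, adjusted p = 0.284), and in the unsuffixed set the values overlapped (-0.04 ± 0.11). In the test of a different SC-560 effect by set, none was called by limma, 1 (Itgb4) had an unadjusted p under 0.05, and 0.0171% of all probe sets were called.

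**Figure D2:**
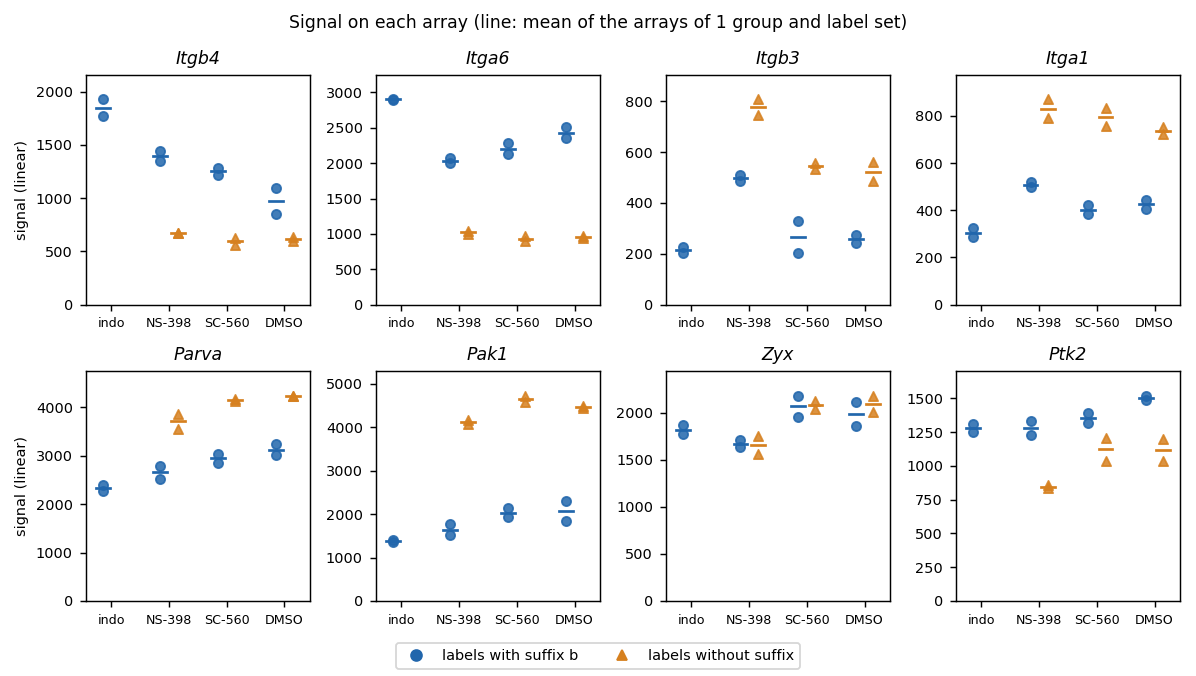
Linear signal on each array for 8 members, with indomethacin (indo), NS-398, SC-560 and DMSO running left to right in every panel, blue circles for set b and orange triangles for the unsuffixed set. Short lines are means of the arrays of 1 group and set. The distance between the sets exceeds the drug differences for Itga6, Itga1 and Pak1, and Zyx shows no such gap.

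Indomethacin and NS-398 were also compared with each other, at the same dose and time. The members called were all integrin subunits: 2 were higher and 2 lower under indomethacin. Of all probe sets 5.45% were called (2.08% higher and 3.36% lower), and of the named genes tested 6.12%. Itgb3 differed most, with 204 and 228 on the indomethacin arrays, against 485 and 511 on the NS-398 arrays of set b and 748 and 808 on those of the unsuffixed set. Within set b no indomethacin value came near an NS-398 value, and the difference in the joint fit was -0.94 ± 0.15 (adjusted p = 0.00134). It held without each indomethacin or NS-398 array (adjusted p at most 0.0288).

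Itga1 was lower under indomethacin by the same comparison, with 326 and 285 on the indomethacin arrays, against 518 and 498 on the NS-398 arrays of set b and 871 and 789 on those of the unsuffixed set. The difference was -0.60 ± 0.10 (adjusted p = 0.00258), and without indomethacin 2b its adjusted p was 0.0674. Itga6 was higher, with 2899 and 2905 on the indomethacin arrays, against 2068 and 2002 on the NS-398 arrays of set b and 1047 and 1002 on those of the unsuffixed set. For both genes the drugs did not overlap within set b, which holds both indomethacin arrays. The Itga6 difference of 0.40 ± 0.09 (adjusted p = 0.0147) was lost without indomethacin 1b or 2b (adjusted p = 0.115 for each) and was 0.50 ± 0.07 in set b alone (adjusted p = 9.47e-04). Itgb4 was higher by 0.46 ± 0.12 (adjusted p = 0.0337), a call lost without indomethacin 1b (0.123), indomethacin 2b (0.249), NS-398 1 (0.0532) or NS-398 2b (0.0618). Among the adaptors and kinases the nearest to a call was Pak1, lower under indomethacin by -0.30 ± 0.09 (adjusted p = 0.0677). The other 19 lay between -0.22 (Bcar1) and 0.17 (Tln1).

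The design sets the drugs that slow migration against the conditions that do not, so the mean of indomethacin and NS-398 was compared with the mean of SC-560 and DMSO. In this contrast 7 members passed, 1 higher and 6 lower, against 10.1% of all probe sets (4.93% higher and 5.17% lower) and 11.1% of the named genes tested. Itgb4 was higher by 0.46 ± 0.08 (adjusted p = 8.97e-04). Parva (-0.28 ± 0.04, adjusted p = 4.74e-04), Pak1 (-0.37 ± 0.06, adjusted p = 5.02e-04), Zyx (-0.23 ± 0.05, adjusted p = 0.00777), Cav1 (-0.16 ± 0.04, adjusted p = 0.0213), Ptk2 (-0.23 ± 0.06, adjusted p = 0.0251) and Tns1 (-0.21 ± 0.06, adjusted p = 0.0428) were lower. Itgb3, at -0.25 under indomethacin (not called) and 0.68 under NS-398 relative to DMSO, had 0.20 and an adjusted p of 0.199. Set b is the only set with all 4 groups. In set b alone Itgb4, Parva, Pak1 and Zyx kept their calls (adjusted p at most 0.0316). Ptk2 (-0.15 ± 0.05, adjusted p = 0.0853) and Tns1 (-0.17 ± 0.08, adjusted p = 0.192) were not called there, nor was Cav1, given below. Pxn (-0.27 ± 0.07, adjusted p = 0.0179), Lims1 (-0.15 ± 0.04, adjusted p = 0.0258) and Actn4 (-0.23 ± 0.06, adjusted p = 0.0339) were called lower there.

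The calls for Itgb4, Parva and Pak1 in the combined contrast held without each of the 14 arrays in turn, with adjusted p at most 0.0117, 0.00701 and 0.00621. Zyx lost its call without indomethacin 1b (0.0571). Cav1 lost it without indomethacin 1b (0.117), indomethacin 2b (0.0562) or NS-398 1 (0.0559). Ptk2 lost it without DMSO 1b (0.0563), indomethacin 1b (0.0713), indomethacin 2b (0.117), NS-398 1 (0.0602) or NS-398 2 (0.0529), and Tns1 in 11 of the 14 cases (up to 0.237, without indomethacin 2b). Leaving out indomethacin 1b, indomethacin 2b or NS-398 1 brought the count of members called to 4. Caveolin 1, the coat protein of caveolae, gave 6981 and 7303 under indomethacin and, in set b, 8005 and 7173 on the NS-398 arrays, against 7915 and 7712 on the SC-560 arrays and 7815 and 7842 on the DMSO arrays. In the unsuffixed set it had 9745 and 10030.0 on the NS-398 arrays, against 12222 and 11626 on the SC-560 arrays and 12063 and 11592 on the DMSO arrays. For this probe set the separation was clear in the unsuffixed set, and in set b NS-398 overlapped with both SC-560 and DMSO (set b alone: -0.09 ± 0.04, adjusted p = 0.175). In the unsuffixed set another Cav1 probe set overlapped, with 4961 and 4933 under NS-398, against 5677 and 4878 under DMSO. The remaining Cav1 probe set was separate there, with 6088 and 6235 under NS-398, against 7301 and 7204 under DMSO.

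Far more members differed between the label sets than under any drug. Set b was higher for 12 members and lower for 9 (70.0% of the 30) in the fit that allows for the drugs. In this comparison 59.0% of all probe sets tested were called (31.0% higher and 28.0% lower), and 63.3% of the named genes tested. Most of the probe sets tested thus differed as well. Without the indomethacin arrays, the 6 arrays of set b did not overlap with the 6 of the unsuffixed set for 15 of the 30 members (50.0%), where 31.6% of all probe sets tested did not overlap.

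Of the integrin subunits, 4 were higher in set b and 4 lower. Itga6 ran from 2002 to 2508 with a median of 2203 in set b and from 893 to 1047 with a median of 965 in the unsuffixed set, a difference of 1.16 ± 0.06 (adjusted p = 1.30e-11). Itga5, the alpha subunit of the fibronectin receptor, ran from 537 to 625 (median 557) in set b and from 223 to 271 (median 244) in the unsuffixed set, a difference of 1.06 ± 0.07 (adjusted p = 4.61e-10). Itgb4 differed by 0.88 ± 0.08 and Itgb1, the common beta subunit, by 0.17 ± 0.04 (adjusted p = 0.00278). In the other direction, Itgb3 differed by -0.81 ± 0.09, Itga1 by -0.76 ± 0.07, Itgav, the alpha partner of Itgb3 and Itgb5, by -0.58 ± 0.05 and Itgb5 by -0.34 ± 0.06. Itga1 ran from 383 to 518 (median 434) in set b and from 722 to 871 (median 773) in the unsuffixed set. Itga3 (-0.20 ± 0.09, adjusted p = 0.0594) and Itga7 (0.43 ± 0.19, adjusted p = 0.0624) were not called.

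Pak1 had the largest set difference of all members. It ran from 1528 to 2309 with a median of 1888 in set b and from 4085 to 4733 with a median of 4464 in the unsuffixed set, a difference of -1.19 ± 0.06 (adjusted p = 1.10e-11). The other kinases and scaffolds lower in set b were Vcl (-0.60 ± 0.04), Cav1 (-0.53 ± 0.04), Parva (-0.47 ± 0.04) and Lims1 (-0.21 ± 0.04). The other Vcl probe sets gave -0.27 ± 0.04 and -0.15 ± 0.09 (the last not called), and the other Lims1 probe set -0.82 ± 0.17, so the means over probe sets were -0.34 for Vcl and -0.52 for Lims1. Higher in set b were Cav2 (0.64 ± 0.07), Arhgef7, the exchange factor beta-PIX (0.47 ± 0.09), Ptk2 (0.42 ± 0.06), Tln1 or talin (0.37 ± 0.05), Git1 (0.24 ± 0.09), Tns1 (0.22 ± 0.06), Bcar1 (0.18 ± 0.07) and Pak2 (0.15 ± 0.05). Cav1 and Cav2, whose proteins assemble with each other, thus differed in opposite directions. Cav1 ran from 7173 to 8005 (median 7829) in set b and from 9745 to 12222 (median 11609) in the unsuffixed set, whereas Cav2 ran from 897 to 1047 (median 1004) in set b and from 551 to 720 (median 605) in the unsuffixed set.

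The set differences of Git1 (adjusted p = 0.0403) and Bcar1 (adjusted p = 0.0331) were the weakest of those called. Git1 lost its call without DMSO 1, where the difference was 0.15 in place of 0.24 (adjusted p = 0.124), and without DMSO 1b (0.0835), NS-398 1 (0.0637), SC-560 1 (0.0933), SC-560 2 (0.0680), SC-560 1b (0.0923) or SC-560 2b (0.0723). Bcar1 lost it without DMSO 2 (0.0703), NS-398 1 (0.0511), NS-398 2 (0.0845), NS-398 2b (0.0954), SC-560 1 (0.0712) or SC-560 2b (0.0747). Src, Ilk, Pxn, Zyx, Actn1, Actn4 and Crk were not called, with differences between -0.12 and 0.07. The marker sums and the beta-actin ratio given above differ between the sets too, and their part in these differences was not tested.

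**Figure D3:**
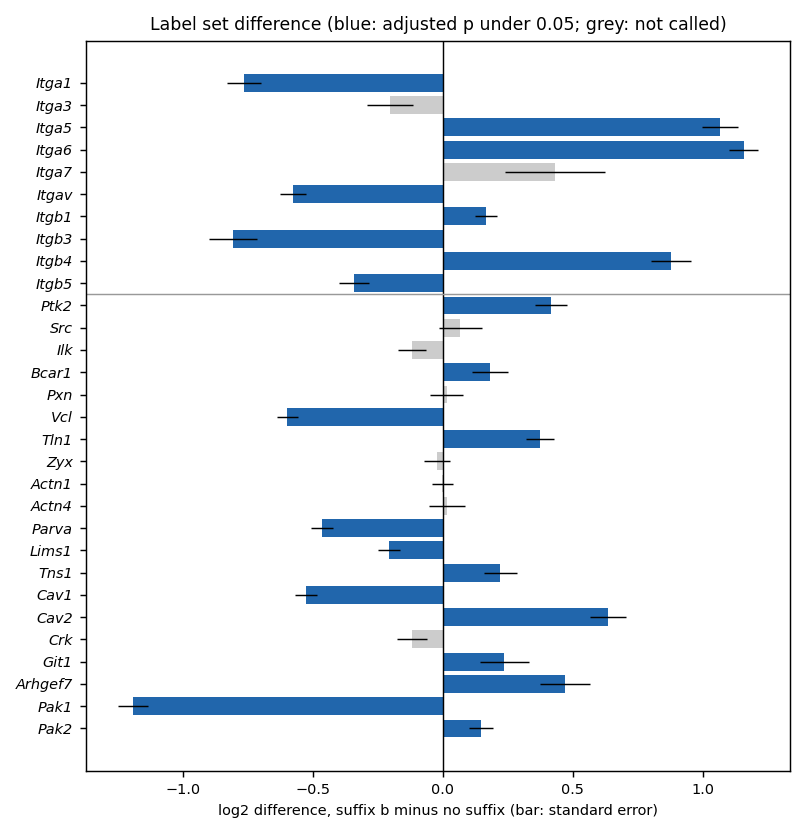
Log2 difference between set b and the unsuffixed set for the 30 members, integrin subunits above the grey line and adaptors and kinases below it; black lines are standard errors, blue bars passed an adjusted p of 0.05 and grey bars did not. Itga6 at 1.16 and Pak1 at -1.19 mark the extremes, and 21 of the 30 bars are blue.

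Whether NS-398 had the same effect in both sets was tested with an interaction term on the 12 arrays of the other groups. Ilk, the integrin-linked kinase, was the 1 member called, where 5.47% of all probe sets were called (2.92% higher and 2.55% lower in set b). The Ilk signal was 3955 and 4096 on the NS-398 arrays of set b, against 3907 and 3907 on the DMSO arrays of set b. In the unsuffixed set it was 3795 and 3730 on the NS-398 arrays, against 4843 and 4453 on the DMSO arrays. In set b the groups lay close together, and in the unsuffixed set NS-398 lay clearly below DMSO. The effect was 0.04 ± 0.06 in set b (adjusted p = 0.688) and -0.30 ± 0.07 in the unsuffixed set (adjusted p = 0.0157), a difference of 0.34 ± 0.09 (adjusted p = 0.0357). This call was lost without DMSO 1 (0.137), DMSO 1b (0.0991), DMSO 2b (0.0870), NS-398 1 (0.0820), NS-398 2 (0.121), NS-398 1b (0.0526) or NS-398 2b (0.0983).

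Actn4, an actin crosslinker, and Itga6 came closest after Ilk. Actn4 had 2464 and 2496 on the NS-398 arrays of set b, against 3076 and 3185 on the DMSO arrays of set b, and 2874 and 3023 on the NS-398 arrays of the unsuffixed set, against 2875 and 2600 on the DMSO arrays of that set. It was thus lower in set b (-0.33 ± 0.09, adjusted p = 0.0313) and not in the unsuffixed set (0.11 ± 0.08, adjusted p = 0.430), with a difference of -0.44 ± 0.12 (adjusted p = 0.0516). The chosen Itga6 probe set behaved in the same manner, with -0.25 ± 0.07 in set b (adjusted p = 0.0278) and 0.10 ± 0.09 in the unsuffixed set (adjusted p = 0.526), and a difference of -0.35 ± 0.11 (adjusted p = 0.0721). The other tested Itga6 probe sets did not separate NS-398 from DMSO in set b. They had 562 and 740 under NS-398, against 593 and 715 under DMSO, and 807 and 866 under NS-398, against 829 and 1087 under DMSO. Cav1 had -0.05 ± 0.06 in set b (adjusted p = 0.653) and -0.26 ± 0.06 in the unsuffixed set (adjusted p = 0.0133), and the difference did not pass (0.21 ± 0.08, adjusted p = 0.146). Pxn was lower in set b alone (-0.37 ± 0.09, adjusted p = 0.0222), and the test of the difference gave an adjusted p of 0.261.

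**Figure D4:**
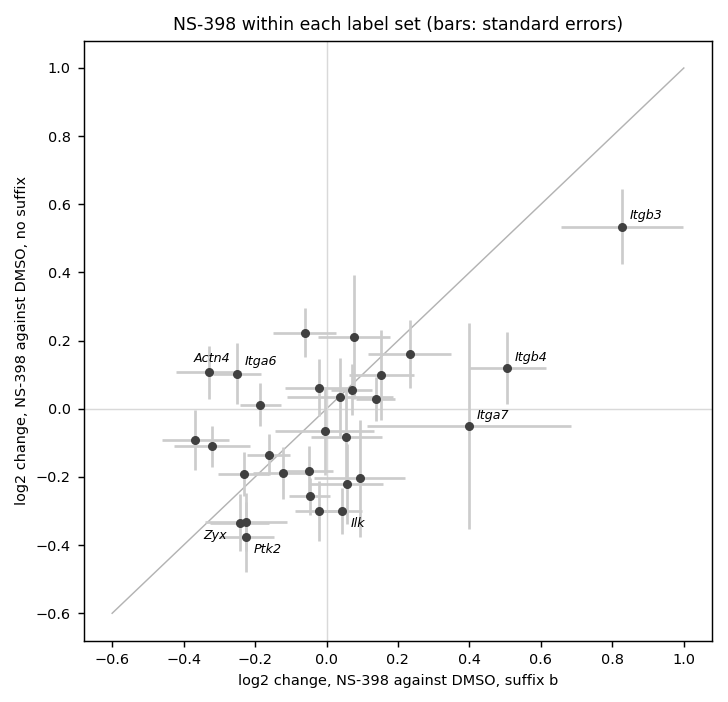
Log2 change under NS-398 against DMSO within set b (horizontal) and within the unsuffixed set (vertical) for the 30 members, with standard errors from the separate fits; the diagonal marks equal changes. Itgb3 lies at 0.83 in set b and 0.53 in the unsuffixed set, Ilk at 0.04 and -0.30, and Actn4 at -0.33 and 0.11.

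Several members have more than 1 probe set, and these did not always give the same value. For Vcl under indomethacin the chosen probe set had -0.08 ± 0.07 (adjusted p = 0.576), another 0.20 ± 0.06 (adjusted p = 0.0907) and the third 0.57 ± 0.14 (adjusted p = 0.0353). For Cav2 under NS-398 the chosen probe set had 0.13 ± 0.08 and another -0.47 ± 0.19, neither called. For Pak2 under NS-398 the chosen probe set had -0.12 ± 0.06 (adjusted p = 0.184), whereas another passed at -0.25 ± 0.08 (adjusted p = 0.0395). A second Tns1 probe set under NS-398 had -0.22 ± 0.11 (adjusted p = 0.198). Itgb3, Itgb4, Itga1 and Zyx rest on 1 probe set each.

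The matrix and cell surface proteins that integrins bind were examined as a list of their own. Of 28 listed ligands tested, 1 was higher and 6 were lower under indomethacin, and 3 were higher and 10 lower under NS-398. These were 25.0% of the list under indomethacin and 46.4% under NS-398, beside 3.27% and 13.5% of all probe sets tested. Their median change was -0.17 under indomethacin and -0.07 under NS-398, beside -0.00 over all named genes under each drug. Nid1, the basement membrane linker nidogen, fell to 2133 and 1823 on the indomethacin arrays, against 4583 and 4052 on the DMSO arrays of set b and 5161 and 5955 on those of the unsuffixed set (-1.12 ± 0.10, adjusted p = 1.30e-05), and it was also lower under NS-398 (-0.73 ± 0.08, adjusted p = 2.07e-05). Tgfbi (-0.76 ± 0.13, adjusted p = 0.00453) and Ccn2 (-0.27 ± 0.06, adjusted p = 0.0128) were lower under indomethacin. Thbs2 or thrombospondin 2 (-0.97 ± 0.14, adjusted p = 2.02e-04) and Col1a2 (-0.24 ± 0.04, adjusted p = 0.00132) were lower under NS-398. Thbs2 lay near the floor in the unsuffixed set, with 34.6 and 46.9 on the NS-398 arrays, against 105 and 88.7 on the DMSO arrays. In set b it had 685 and 782 on the NS-398 arrays, against 1681 and 1919 on the DMSO arrays.

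Spp1, which encodes osteopontin, a ligand of the alpha v integrins, was higher under both drugs. It had 18043 and 19356 on the indomethacin arrays, against 12815 and 13435 on the DMSO arrays of set b and 5589 and 3852 on those of the unsuffixed set (0.61 ± 0.16, adjusted p = 0.0425). Under NS-398 its change was 0.65 ± 0.12 (adjusted p = 0.00222). Vcam1 (0.45 ± 0.11, adjusted p = 0.0140) and Icam1 (0.36 ± 0.10, adjusted p = 0.0245), cell surface ligands of leukocyte integrins, were higher under NS-398. Under SC-560 none of the 28 ligands was called, and 4 had an unadjusted p under 0.05.

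Of 18 membrane partners of integrins, 1 was higher under indomethacin and none lower, and 3 were higher and 1 lower under NS-398. That is 5.56% of the list under indomethacin and 22.2% under NS-398, beside the same 3.27% and 13.5%, with medians of 0.04 and 0.02. The 1 called under indomethacin was Slc3a2, the CD98 heavy chain that binds beta subunits. It had 6921 and 6946 on the indomethacin arrays, against 4240 and 4239 on the DMSO arrays of set b and 2190 and 2204 on those of the unsuffixed set (0.70 ± 0.06, adjusted p = 4.21e-06), and under NS-398 its change was 0.40 ± 0.05 (adjusted p = 2.80e-05). NS-398 also raised Cd44, a hyaluronan receptor (0.65 ± 0.09, adjusted p = 2.22e-04), and Ddr2, a collagen receptor kinase (0.36 ± 0.09, adjusted p = 0.0120), and lowered the syndecan Sdc2 (-0.25 ± 0.05, adjusted p = 0.00264).

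Among 62 other plaque and signalling genes tested, 1 was lower under indomethacin, and 5 were higher and 7 lower under NS-398, with medians of 0.05 and -0.09. The share called, 1.61% under indomethacin and 19.4% under NS-398, lay below the 3.27% of all probe sets and near the 13.5%. Kank1, a talin-binding protein at the rim of adhesions, was the 1 lower under indomethacin (-0.45 ± 0.07, adjusted p = 0.00293), and it was lower under NS-398 too (-0.23 ± 0.06, adjusted p = 0.0128). Tln2, the second talin, had 373 and 443 on the NS-398 arrays of set b and 334 and 260 on those of the unsuffixed set, against 567 and 641 on the DMSO arrays of set b and 436 and 448 on those of the unsuffixed set (-0.51 ± 0.09, adjusted p = 0.00144). Pdlim7 was lower under NS-398 (-0.34 ± 0.08, adjusted p = 0.0107), and Sorbs2 (0.37 ± 0.10, adjusted p = 0.0209), Nedd9, a relative of Bcar1 (0.26 ± 0.07, adjusted p = 0.0234), and Dlc1 (0.35 ± 0.10, adjusted p = 0.0251) were higher. Under SC-560 none of the 62 was called, with 5 at an unadjusted p under 0.05.

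Of 17 other integrin subunits listed, 3 passed the filter on low signals, Itga8, Itga11 and Itgae, and none was called for a drug against DMSO or in the comparison of indomethacin with NS-398. In that comparison 2 of the 3 had an unadjusted p under 0.05, with values between -0.43 and 0.70 over the 3 genes (adjusted p at least 0.129). All 3 differed between the label sets: Itga11, the alpha subunit of a collagen receptor of mesenchymal cells, was higher in set b (2.39 ± 0.14, adjusted p = 1.02e-10), and Itga8 (-1.11 ± 0.16, adjusted p = 1.51e-05) and Itgae (-0.38 ± 0.12, adjusted p = 0.0128) were lower.

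In the direct comparison of indomethacin with NS-398, 3 of the 62 plaque genes, 3 of the 18 partners and 2 of the 28 ligands were higher under indomethacin, and 5 ligands were lower. These were 4.84% of the plaque genes, 16.7% of the partners and 25.0% of the ligands, beside 5.45% of all probe sets. The higher plaque genes were Tln2 (0.75 ± 0.12, adjusted p = 0.00150), Fhl2 (0.68 ± 0.15, adjusted p = 0.0122) and Arhgap26, whose protein binds the focal adhesion kinase (0.74 ± 0.18, adjusted p = 0.0251). Arhgap26 lay near the floor, with 67.5 to 81.8 on the NS-398 arrays, all under 100, and 121 and 178 on the indomethacin arrays. The higher partners were Slc3a2 (0.30 ± 0.06, adjusted p = 0.00564), Cd47 (0.45 ± 0.11, adjusted p = 0.0267) and Sdc2 (0.25 ± 0.06, adjusted p = 0.0303). Nid2 (0.87 ± 0.14, adjusted p = 0.00151) and Thbs2 (0.77 ± 0.17, adjusted p = 0.0150) were the higher ligands. Ccn2 (-0.36 ± 0.06, adjusted p = 0.00105), Vcam1 (-0.83 ± 0.15, adjusted p = 0.00293) and Tnc or tenascin C (-0.41 ± 0.07, adjusted p = 0.00314) led the lower ones.

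With indomethacin and NS-398 combined against SC-560 and DMSO, 1 ligand was higher and 13 were lower, 4 partners were higher and 3 lower, and 3 plaque genes were higher and 6 lower. These were 50.0% of the ligands, 38.9% of the partners and 14.5% of the plaque genes, beside 10.1% of all probe sets. Spp1 (0.69 ± 0.10) was the higher ligand, and Nid1 (-0.87 ± 0.07), Tgfbi (-0.72 ± 0.09) and Col1a2 (-0.25 ± 0.04) had the smallest adjusted p among the lower ones. Slc3a2 (0.53 ± 0.04), Cd44 (0.54 ± 0.07) and Ddr2 (0.34 ± 0.07) led the higher partners, and the lower ones were Sdc2, Cd81 and Tspan4, each between -0.16 and -0.15. Sorbs2 (0.41 ± 0.08), Pdlim5 (0.24 ± 0.05) and the Src family kinase Fyn (0.29 ± 0.08) were the higher plaque genes, and Kank1 (-0.31 ± 0.05), Pdlim7 (-0.32 ± 0.07) and Evl (-0.28 ± 0.06) led the lower ones. Adjusted p-values of these named genes ran up to 0.0479.

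The label sets differed in these lists as well: 12 ligands were higher and 12 lower in set b, 9 partners higher and 8 lower, and 27 plaque genes higher and 16 lower. These were 85.7% of the ligands, 94.4% of the partners and 69.4% of the plaque genes, beside 59.0% of all probe sets and 63.3% of the named genes. Among ligands Col1a2 (1.41 ± 0.04), Nid2 (3.39 ± 0.09) and Thbs2 (3.56 ± 0.11) were the higher by smallest adjusted p, and Col4a1 (-2.22 ± 0.09), Tnc (-0.63 ± 0.05) and Col4a2 (-0.89 ± 0.12) the lower. Col4a1 and Col4a2 encode the network collagen of basement membranes. Among partners Sdc2 (1.06 ± 0.04), Slc3a2 (0.93 ± 0.04) and Cd44 (1.39 ± 0.07) were higher, and Tspan8 (-0.50 ± 0.03), Sdc4 (-0.94 ± 0.06) and Cd81 (-0.53 ± 0.04) were lower. Among plaque genes Efs (2.01 ± 0.09), Fhl2 (1.58 ± 0.09) and Ptpn11 (0.71 ± 0.05) were higher, and Asap2 (-1.42 ± 0.06), Kank1 (-0.64 ± 0.05) and Nedd9 (-0.52 ± 0.06) were lower.

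The effect of NS-398 was more positive in set b for 7 ligands and more negative for 1, Spp1 (-0.63 ± 0.17, adjusted p = 0.0473). The 3 with the smallest adjusted p were Col6a1 (1.03 ± 0.14, adjusted p = 6.40e-04), Col3a1 (0.38 ± 0.07, adjusted p = 0.00383) and Lama5 (0.57 ± 0.11, adjusted p = 0.00800). Of the partners, Cd47 (0.48 ± 0.11), Bsg (0.26 ± 0.06) and Cd9 (0.36 ± 0.09) were more positive in set b, and of the plaque genes Tns3 (0.45 ± 0.10) and Csrp1 (0.37 ± 0.10) were, whereas Cavin2 (-0.72 ± 0.14) and Ajuba (-0.44 ± 0.09) were more negative. The share called was 28.6% of the ligands, 16.7% of the partners and 6.45% of the plaque genes, beside 5.47% of all probe sets.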

How the data were processed

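Linear signal intensities, deposited by the authors for 31099 probe sets on each of 14 one-colour Affymetrix arrays, were used as given. Per the labels, all probe sets had been scaled to a target signal of 500. Which software summarised the probes is not stated in the sources used here. The number of arrays limits the precision. Groups came from the treatment labels. Gene symbols came from the platform's annotation and were brought up to date with RefSeq (GRCr8): 20832 had 1 symbol, 436 had several and 9831 were not listed, and these last kinds stayed unnamed. After 57 control probe sets were removed, the 17515 with a signal of at least 100 on at least 2 arrays were tested.

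The log2 of (signal + 50) was modelled in limma 3.58.1 under R 4.3.3 (a mean per group, a label set term, empirical Bayes with an intensity trend), and fold changes are on that scale. Adjusted p-values are Benjamini-Hochberg values over all probe sets tested, called under 0.05, and ± gives standard errors. The interaction with the label set was fitted without indomethacin, and single sets were also fitted alone. On simulated data with known changes the model was tested first. The members and all gene and marker lists were chosen with earlier results of these data known. All 30 members are named, with values for those called. From each other list, up to 3 called genes per direction with the smallest adjusted p were named. Arrays that share a label (1, 2, 1b or 2b) were checked as possible pairs: with group and set means subtracted, they correlated between -0.08 and 0.06, so the labels carry no pairing beyond the set. Alternatives were the pseudocount, the filter, quantile normalization, the label set term, single sets, the trend, blocks, the mean of a gene's probe sets and leaving out each array. Promoter windows were searched for motifs on both strands.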

Additional observations from a re-analysis of the deposited data

Results flagged for a closer look

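Each member was examined in each group of 4 arrays for an array far from the other 3, once the mean difference between the label sets had been removed; 90 such groups were examined and 3 stood out by Dixon's test at the 95% level, where chance gives about 1 group in 20. These were Itga7 on NS-398 array 1, with a signal of 8.82, Src on DMSO array 2b, with 331, and Pak1 on NS-398 array 2b, with 1528. Ilk was the 1 member whose response to NS-398 differed between the label sets by test, with a difference of 0.34 on the log2 scale (set b minus the unsuffixed set).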

How the results depend on the processing

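Of the 887 combinations of a called gene and an alternative (43 gene results), 759 kept their direction and their side of the threshold, 128 lost the call and 0 reversed. Of the lost calls, 65 came with an array left out, 21 without the label set term and 42 under other alternatives. Without the label set term, 0 members were called for indomethacin against DMSO, NS-398 against DMSO, the combined contrast and indomethacin against NS-398, and the probe sets called were 2, 111, 105 and 15. Leaving out 1 array gave 1 to 4 members for indomethacin against DMSO, 4 to 7 for NS-398 against DMSO, 4 to 10 for the combined contrast, 1 to 4 for indomethacin against NS-398 and 0 to 1 for the interaction of NS-398 with the set. That interaction gave 2 members with a pseudocount of 200, a floor of 200 or the mean of a gene's probe sets, and 0 with no filter on low signals or no intensity trend. SC-560 gave 0 members under every alternative run.

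With the digit as a replicate block, 3 members were called for indomethacin against DMSO, 5 for NS-398 against DMSO, 6 in the combined contrast and 3 for indomethacin against NS-398; the calls lost were Itga1 (adjusted p = 0.0646), Itgb4 (0.0551), Tns1 (0.0707) and Itgb4 (0.0597), in that order, and none other. A random block for group and set (correlation 0.157) lost Itga1 under indomethacin (0.101), Itgb4 (0.0634) and Tns1 (0.0579) under NS-398, Ptk2 (0.0526) and Tns1 (0.0935) in the combined contrast, and Itgb4 in indomethacin against NS-398 (0.0696). Cav1 in the combined contrast had an adjusted p of 0.199 with the mean of its probe sets.

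Counts of probe sets called moved by more than 1.5 times in places. For indomethacin against DMSO (572) they were 347 with no filter, 1174 in set b alone, 328 without the trend, 283 with the random block and 100 without indomethacin 2b. For NS-398 against DMSO (2366) they were 1561 with the random block. For indomethacin against NS-398 (954) they were 1630 in set b alone, 544 with the random block and 261 without indomethacin 2b. For the combined contrast (1768) they were 923 without indomethacin 2b. For the interaction of NS-398 with the set (958) they were 586 with no filter, 330 without the trend and 408 without NS-398 2, and for that of SC-560 (3) between 0 and 11. SC-560 against DMSO (0) gave 3 in set b alone, 2 in the unsuffixed set alone and 2 without the trend. Where no value shows it, the cause was not tested. Itga7 and Arhgap26 lie near the floor. Other named genes were near or under it on the unsuffixed arrays, among them Thbs2 (34.6 to 105), Tgfbi (97.0 to 183), Fhl2 (99.2 to 169) and Vcam1 (109 to 238). Indomethacin has 2 arrays in 1 set only.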
